A study of Homo sapiens with 12 samples.

Results

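Gene expression levels were compared between synovial sarcoma (SS) cell lines that carry the fusion gene SS18-SSX1 (Aska-SS and Yamato-SS) and lines that carry SS18-SSX2 (SYO-1 and Fuji). A gene was kept where, at each of the 3 doses of the PI3K inhibitor ZSTK474, both lines of one fusion lay above both lines of the other. Of 12132 genes with a level above the filter, 1639 (13.5%) were separated in this way. In 704 genes (5.8%) the SS18-SSX1 lines were higher, and in 935 genes (7.71%) the SS18-SSX2 lines were higher. Since the levels themselves chose these genes, their level differences are given as a description.

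SS18 is a subunit of the BAF (SWI/SNF) chromatin remodeling complexes. In SS a chromosomal translocation joins most of SS18 to the end of an SSX protein from the X chromosome, in most tumors SSX1 or SSX2. The fusion protein enters BAF complexes and is brought by its SSX end to chromatin that carries Polycomb marks, often at CpG-rich promoters of developmental genes, where transcription is then switched on.

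Each line was cultured for 24 h with 0 µM, 0.3 µM or 3 µM ZSTK474. The sample labels do not say whether the 0 µM cultures received vehicle. Per line and dose, 1 Affymetrix U133 Plus 2.0 array was run, which gave 6 arrays per fusion gene and 12 arrays in all. The fusion gene of each line was taken from the description of the cell lines in the study. The lines are the units of the comparison, 2 against 2, and the 3 arrays of a line differ in dose and are not replicates. Each line derives from its own tumor, so the fusion gene cannot be told apart from any other difference between the tumors or between the cultures, and the precision is limited by the number of lines. An exact permutation test of 2 lines against 2 cannot give a two-sided p below 0.333.

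The levels are log2 values of signal intensities after quantile normalization, with a floor of 3.60 (a signal of 12.1), and a value at the floor is only an upper limit. A gene was kept when its mean level exceeded 6.03, the median of all probe sets other than controls. In 126 of the 704 genes (17.9%) and 69 of the 935 (7.38%) the mean of the lower fusion was itself below that limit, against 5.56% of all genes tested. The arrays had median signals of 60.1 to 85.3. The log2 ratio of the 3′ to the 5′ probe sets of beta actin is a sign of RNA quality. It was 0.04 to 0.26 in the SS18-SSX1 arrays and 0.16 to 0.75 in the SS18-SSX2 arrays, with the highest value in Fuji at 3 µM. At each dose both SS18-SSX2 lines lay above both SS18-SSX1 lines, so this ratio itself met the rule that chose the genes. Within every line it also rose with dose. The part of RNA quality in the results was not tested. The same ratio for GAPDH was -0.13 to 0.06 and -0.09 to 0.07. All 8 SS markers examined on the array lay above the filter, for example TLE1, a transcriptional corepressor used to diagnose SS, at 12.83 to 14.56. Of the markers of other cell types, 0 of 6 for leukocytes, 0 of 4 for skeletal muscle, 1 of 5 for endothelium (PECAM1) and 1 of 3 for melanocytes (PMEL) lay above it, and CD14 and MYOG were at the floor on all 12 arrays.

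The SSX probe sets were examined first, because the end of the fusion transcript is SSX sequence. The probe set of SSX1 (206626_x_at) gave 11.87, 11.92 and 11.82 in Aska-SS at 0, 0.3 and 3 µM, and 11.64, 11.74 and 11.87 in Yamato-SS. It gave 10.89, 10.56 and 10.55 in SYO-1, and 10.06, 9.99 and 9.74 in Fuji. The 6 SS18-SSX1 arrays thus lay above the 6 SS18-SSX2 arrays without overlap, and the line means differed by 1.51 ± 0.37 (SE, n = 2 lines per fusion gene) on the log2 scale. The opposite pattern was found in probe set 207493_x_at, which is annotated to both SSX2 and SSX2B. It lay at 6.84 to 7.13 in Aska-SS and 5.24 to 6.08 in Yamato-SS, against 10.02 to 10.19 in SYO-1 and 8.77 to 9.78 in Fuji, a mean difference of -3.48 (SS18-SSX1 minus SS18-SSX2).

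The other SSX probe sets followed neither fusion gene as a whole. Both probe sets annotated to SSX4 and SSX4B above the filter were higher in the SS18-SSX1 lines, by 2.19 (210394_x_at) and 2.05 (211425_x_at). One SSX3 probe set (207666_x_at) was higher in the SS18-SSX2 lines, at 9.97 to 10.80 against 8.68 to 9.26. A second pair of probe sets annotated to SSX2 and SSX2B was not separated, with differences of -0.29 (210497_x_at) and 0.47 (216471_x_at). In all, 9 of 14 SSX probe sets lay above the filter, 3 of them separated with the SS18-SSX1 lines higher and 2 with the SS18-SSX2 lines higher. The SSX genes are near-identical copies and the suffix _x_at marks probes that can bind other transcripts, so these values cannot be assigned to single SSX genes or to the fusion transcript alone.

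**Figure D1:**
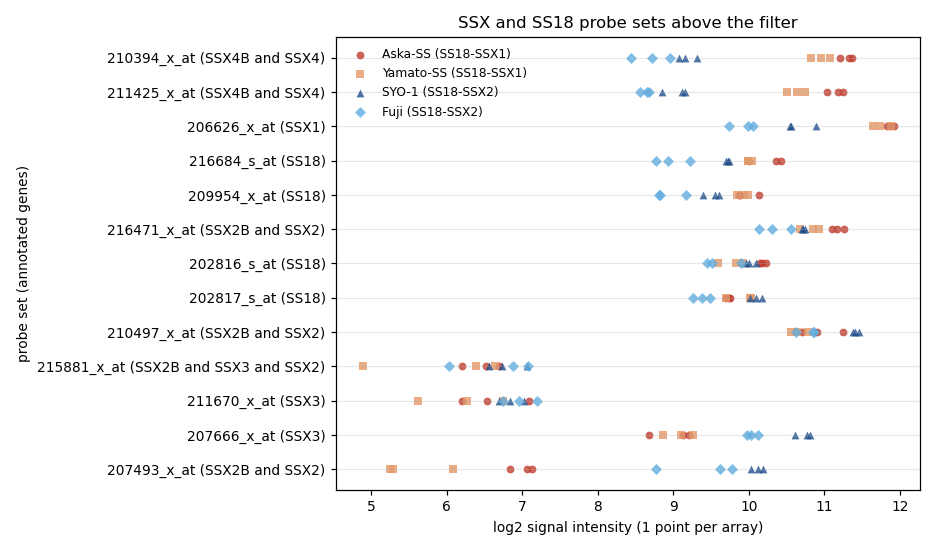
Log2 signal intensity (x axis) of the SSX and SS18 probe sets above the filter (y axis, with the annotated genes), 1 point per array, 3 per line. The SS18-SSX1 lines (reds) lie to the right at 206626_x_at and at both SSX4 probe sets, and the SS18-SSX2 lines (blues) lie to the right at 207493_x_at and 207666_x_at.

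For SS18 itself the answer depended on the probe set. The brightest of its 4 probe sets (202816_s_at) gave line means of 10.19 in Aska-SS, 9.78 in Yamato-SS, 10.02 in SYO-1 and 9.62 in Fuji, which overlap. Its probe sets 209954_x_at and 216684_s_at were separated with the SS18-SSX1 lines higher, by 0.72 and 0.79. Its relatives SS18L1 and SS18L2 were not separated (differences of 0.12 and 0.56).

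Lines with the same fusion gene were not, over all genes, more alike than lines with different ones. Aska-SS and Yamato-SS, which share SS18-SSX1, had 3398 of 12132 genes at least 1 apart on the log2 scale, more than any other pair of the 4 lines, and a correlation across genes of r = 0.785. SYO-1 and Fuji, which share SS18-SSX2, had 2254 such genes (r = 0.841). Aska-SS and Fuji, with different fusion genes, had 2159 (r = 0.849), the fewest of the 6 pairs, and the other 3 pairs had 2573 to 2973. Genes are not independent replicates, and the r values are descriptions.

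**Figure D2:**
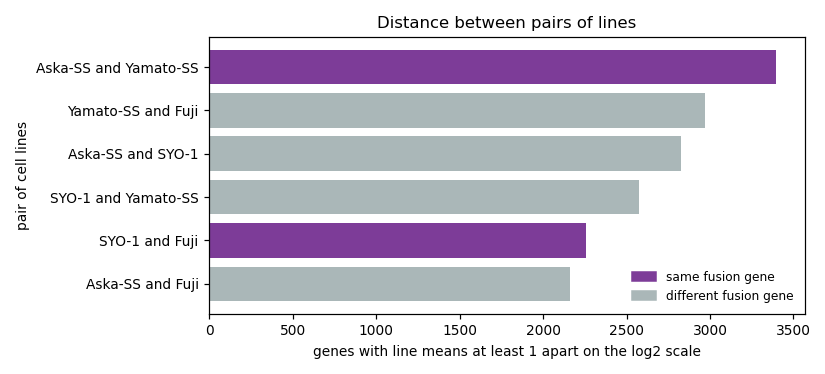
Number of genes whose line means (mean of 3 doses) lie at least 1 apart on the log2 scale (x axis), for each pair of the 4 lines (y axis), with pairs of the same fusion gene in purple. The SS18-SSX1 pair has the most genes, 3398, and Aska-SS and Fuji the fewest, 2159.

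The separation of a gene is the smallest of its 3 gaps, 1 per dose, between the lower line of the higher fusion and the higher line of the other. Its median was 0.21 in both directions, and the median size of the difference of line means was 0.81 in both directions, against 0.31 over all genes. A separation of at least 1 was found in 110 genes with the SS18-SSX1 lines higher (0.907%) and in 74 with the SS18-SSX2 lines higher (0.61%). Fitted over all 12132 genes with limma on the 4 line means, the fusion difference passed an adjusted p of 0.05 in 0 genes (0%), and 433 genes (3.57%) had an unadjusted p under 0.05. With all 12 arrays and the line as a random block, 61 genes passed, but that fit rests on arrays of a line that are not replicates. Both fits use the levels that chose the genes, so they are no separate evidence for them. The genes just inside the limit were EPC2, NSMCE1 and S100PBP, with separations that round to 0.00, and just outside lay CTDSPL2, SIKE1 and EDAR.

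Among the 15 largest separations with the SS18-SSX1 lines higher were POSTN, COL1A2, DCN and LUM, which encode proteins of the extracellular matrix. POSTN, which encodes the matrix protein periostin, had signals of 8982, 13269 and 15064 in Aska-SS at the 3 doses and 39379, 37929 and 38004 in Yamato-SS. In SYO-1 it lay at the floor of 12.1 and then at 35.6 and 30.6, and in Fuji at 169.0, 169.0 and 151.8. The 4 line means were 13.57, 15.23, 4.56 and 7.35 on the log2 scale, in the order Aska-SS, Yamato-SS, SYO-1, Fuji. They differed by 8.44 ± 1.17 (SE) between the fusion genes (limma, adjusted p = 0.65).

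COL1A2, a chain of type I collagen, had line means of 11.01 in Aska-SS and 12.52 in Yamato-SS against 4.79 in SYO-1 and 4.95 in Fuji. DCN (decorin) and LUM (lumican), small proteoglycans that bind collagen, were highest in Aska-SS, at 15.06 and 15.22. In Yamato-SS they had means of 11.37 and 10.78, in SYO-1 of 6.73 and 6.83, and in Fuji of 6.22 and 5.37. In DCN and LUM the 2 SS18-SSX1 lines were thus about as far from each other as Yamato-SS was from the SS18-SSX2 lines.

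The largest separation among the genes named here, 5.97, was found in ITM2A, a type II transmembrane protein gene. Its 6 SS18-SSX1 arrays ran from 9.57 to 11.59 with a median of 11.19, and 5 of its 6 SS18-SSX2 arrays were at the floor. SPESP1, a sperm acrosome protein gene, lay at 9.88 to 10.24 on the SS18-SSX1 arrays and 3.60 to 4.80 on the SS18-SSX2 arrays, a difference of 5.96 ± 0.42 (SE) with an adjusted p of 0.465 by limma. S100A6, a calcium-binding protein gene, stood at 14.32 in Aska-SS and 9.85 in Yamato-SS, and at the floor on the 3 Fuji arrays. GLUL (glutamine synthetase) was at 12.72 and 12.47 in the SS18-SSX1 lines, at 8.30 to 8.71 on the SYO-1 arrays and at 3.91 in Fuji.

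The 15 largest separations in this direction among genes that could be named were completed by PROCR, the protein C receptor, PLCB4, a phospholipase C, ENPEP (glutamyl aminopeptidase), DSEL, PINLYP, SERP2 and the RNA gene CCDC144NL-AS1. All 15 were separated by at least 3.56. In 13 of the 15 at least 1 SS18-SSX2 array was at the floor, so that those differences depend on where the floor was set, and the exceptions were DCN and LUM.

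In the other direction, the 5 largest separations were those of PCDHB2, SVEP1, TGFBI, ZIC1 and SFRP2. PCDHB2, a clustered protocadherin, had signals of 2108, 2509 and 2910 in SYO-1 and 2118, 2987 and 2924 in Fuji. In Aska-SS it had 61.3, 90.5 and 129.7, and in Yamato-SS its log2 levels ran from 4.73 to 5.32. The line means differed by -5.54 ± 0.60 (SE, SS18-SSX1 minus SS18-SSX2), and the separation of 4.49 was the largest in this direction.

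TGFBI, a matrix protein gene induced by TGF beta, had line means of 13.83 in SYO-1 and 14.57 in Fuji against 9.96 in Aska-SS and 10.20 in Yamato-SS. SVEP1, a large adhesion protein, had means of 12.54 and 11.36 against 6.87 and 6.38. ASPHD2 had 10.11 and 10.32 against 7.02 and 7.21. In these 3 genes the lines of one fusion lay within about 1 of each other except for SVEP1 in SYO-1 and Fuji.

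ZIC1, a zinc finger transcription factor of neural progenitors, divided the lines differently. It stood at 14.62 in SYO-1 and 14.01 in Fuji, at 10.52 in Yamato-SS and at 4.90 in Aska-SS. The 2 SS18-SSX1 lines were therefore farther apart than Yamato-SS was from Fuji. TNFRSF19, a receptor of the TNF family, had a similar spread with the SS18-SSX1 lines exchanged, at 9.58 in Aska-SS and 3.78 in Yamato-SS against 14.19 in SYO-1 and 12.89 in Fuji.

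Others among the 15 largest separations were SFRP2, a secreted regulator of Wnt signaling, CDON, a Hedgehog coreceptor, DUSP4, a phosphatase of MAP kinases, GJA3, a connexin, and KCND3, a potassium channel. ADAMTSL1, XYLT1, TRABD2B and the chemokine gene CCL2 completed them, all with separations of at least 2.44. CCL2 was higher in SYO-1 (10.51 to 11.88) than in Fuji (6.21 to 9.10), and 3 of its 6 SS18-SSX1 arrays were at the floor.

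**Figure D3:**
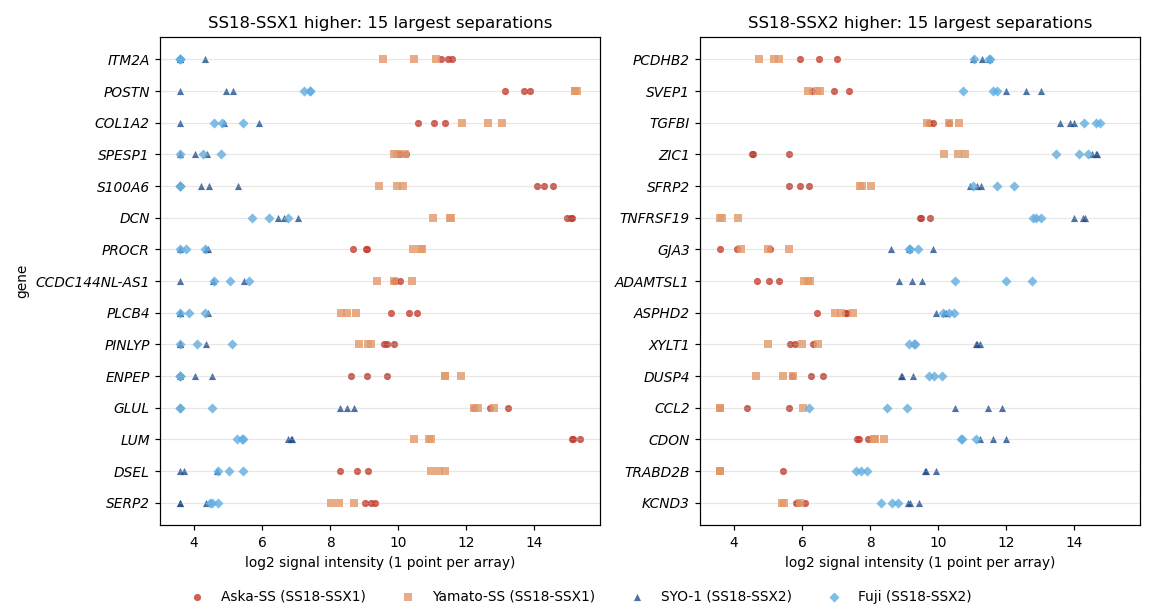
Log2 signal intensity (x axis) of the 15 genes (y axis) with the largest separation in each direction, SS18-SSX1 higher on the left and SS18-SSX2 higher on the right, 1 point per array. Points at 3.60 are at the floor, and the lines of one fusion are close together in SPESP1 and far apart in DCN, ZIC1 and TNFRSF19.

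The 250 bases before the transcription start were taken from RefSeq (GRCh38.p14), with the first start listed for a gene, for 588 of the genes higher in the SS18-SSX1 lines, for 774 of those higher in the SS18-SSX2 lines and for 9890 genes in all. The median number of CG dinucleotides was 21, 23 and 21, in that order. Among genes separated by at least 1, it was 17 in 77 genes with the SS18-SSX1 lines higher and 22 in 54 genes with the SS18-SSX2 lines higher. At most 5 CG were found in 14 (18.2%) and 8 (14.8%) of them, against 8.18% of all 9890. The motif TATAAA, on either strand, was present in 9 (11.7%) and 3 (5.56%) of these 77 and 54, and in 5.21% of all. These are few genes. Many of the largest separations passed the filter only through the higher fusion, so the comparison with all genes is not of like sets. These counts are descriptions of the reference sequence, and nothing was measured at these sites.

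The upstream bases of the largest separations with 1 listed start are shown for comparison, because the leading genes of both directions differ among themselves in CG content. Capitals mark CG and the motif TATAAA read on either strand, and the sequences run 5′ to 3′ on the strand of the gene. They are those of ITM2A (chrX:79367335-79367584, minus strand, 11 CG), POSTN (chr13:37598769-37599018, minus strand, 1 CG, with TATAAA near the start), PCDHB2 (chr5:141094365-141094614, plus strand, 10 CG) and TGFBI (chr5:136028738-136028987, plus strand, 20 CG).
ITM2A: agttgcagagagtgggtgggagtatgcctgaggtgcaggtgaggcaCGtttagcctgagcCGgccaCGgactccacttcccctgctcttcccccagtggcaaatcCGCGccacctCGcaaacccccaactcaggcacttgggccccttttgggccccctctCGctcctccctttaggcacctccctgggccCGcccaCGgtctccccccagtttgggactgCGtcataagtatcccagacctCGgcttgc
POSTN: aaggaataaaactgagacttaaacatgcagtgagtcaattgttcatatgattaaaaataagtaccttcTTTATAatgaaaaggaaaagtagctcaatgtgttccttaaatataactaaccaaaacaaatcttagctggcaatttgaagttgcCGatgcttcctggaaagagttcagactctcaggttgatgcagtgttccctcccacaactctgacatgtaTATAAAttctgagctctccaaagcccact
PCDHB2: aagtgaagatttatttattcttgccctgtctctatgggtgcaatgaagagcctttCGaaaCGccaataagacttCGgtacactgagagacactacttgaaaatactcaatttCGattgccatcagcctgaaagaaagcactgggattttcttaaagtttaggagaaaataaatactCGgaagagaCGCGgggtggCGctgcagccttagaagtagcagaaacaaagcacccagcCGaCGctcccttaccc
TGFBI: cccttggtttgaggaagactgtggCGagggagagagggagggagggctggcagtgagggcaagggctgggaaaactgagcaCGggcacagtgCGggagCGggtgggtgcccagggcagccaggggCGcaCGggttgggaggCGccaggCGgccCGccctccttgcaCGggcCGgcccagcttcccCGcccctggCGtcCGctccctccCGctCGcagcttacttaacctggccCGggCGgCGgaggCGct

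Of the 22 mesenchymal genes examined, POSTN, DCN, LUM and CDH2 (N-cadherin) were separated with the SS18-SSX1 lines higher, and CDH11, ZEB1 and FN1 (fibronectin) with the SS18-SSX2 lines higher. The separated share of this list was 31.8%, against 13.5% of all genes. The median difference of the 22 genes was 0.92, against -0.05 over all genes. CDH11, an osteoblast cadherin, was at 14.48 in SYO-1 and 14.13 in Fuji against 13.61 and 13.60 in Aska-SS and Yamato-SS, a small and even difference of -0.70. ZEB1, a repressor of epithelial genes, ran from 11.60 to 12.18 in the SS18-SSX2 arrays and from 5.56 to 11.48 in the SS18-SSX1 arrays. Of 15 epithelial genes, 3 (20%) were separated, against 13.5% of all genes. They were OVOL1, with the SS18-SSX1 lines higher, and PROM1 and the desmosomal gene DSP, with the SS18-SSX2 lines higher. DSP was at 10.76 in SYO-1 and at 6.28 in Fuji, little above the 5.87 of Aska-SS.

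Of 25 collagen genes, 4 (16%) were separated, near the 13.5% of all genes. COL4A1 and COL4A2, the neighbouring genes of basement membrane collagen, were higher in the SS18-SSX1 lines with COL1A2. COL4A1 had line means of 12.13 in Aska-SS, 13.76 in Yamato-SS, 10.95 in Fuji and 6.09 in SYO-1, with SYO-1 far below the other 3 lines and a difference of 4.43. COL13A1, a transmembrane collagen, was higher in the SS18-SSX2 lines, at 9.52 and 10.27 against 8.74 and 4.26. Of 20 integrin and laminin genes, 4 (20%) were separated, against 13.5% of all genes. LAMA2 and ITGA1 were higher in the SS18-SSX1 lines and ITGB5 and LAMC3 in the SS18-SSX2 lines. LAMA2, the laminin chain of muscle and nerve basement membrane, had means of 7.84 and 8.53 against 5.37 and 5.48, while ITGA1, a collagen receptor chain, was at 11.18 in Aska-SS and 6.19 in Yamato-SS.

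Transcription factors of development held separated genes in both directions, 12 of 45 (26.7%, against 13.5% of all genes). TFAP2C, SALL1, SIX2, NKX3-2, DLX2 and SHOX2 were higher in the SS18-SSX1 lines. TFAP2C, a factor of germ cells and skin, had means of 10.00 in Aska-SS and 9.24 in Yamato-SS against 4.51 in SYO-1 and 6.01 in Fuji, with a separation of 2.93. SALL1, a kidney and limb factor, had 8.14 and 8.91 against 5.98 and 5.82. GATA6, EYA4, BARX1, IRX2, OSR2 and TBX3 were higher in the SS18-SSX2 lines. GATA6, a factor of endoderm and heart, had 12.24 in SYO-1 and 11.30 in Fuji against 9.44 and 9.51, and EYA4, a transcriptional coactivator, 11.42 and 10.61 against 8.61 and 8.42.

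Of 27 HOX genes, 6 (22.2%) were separated, against 13.5% of all genes. HOXB9, HOXB7, HOXB6, HOXB5 and HOXB3, all of the HOXB cluster, were higher in the SS18-SSX2 lines, and HOXD13, the last gene of the HOXD cluster, was higher in the SS18-SSX1 lines. HOXB9 had means of 9.46 in SYO-1 and 10.10 in Fuji against 8.72 in Aska-SS and 6.87 in Yamato-SS. In the 3 HOXB genes with the largest separations, HOXB9, HOXB7 and HOXB5, Yamato-SS was lowest and Aska-SS lay closer to SYO-1 than to Yamato-SS. HOXD13 was at 11.13 in Aska-SS, 8.45 in Yamato-SS, 7.65 in Fuji and 6.74 in SYO-1. Of 19 neural genes, ZIC1, ZIC4 and the neurofilament gene NEFH were separated (15.8%, near the 13.5% of all genes). All 3 had the SS18-SSX2 lines higher, while the median difference of the 19 was 0.13. NEFH had means of 9.74 and 9.81 against 5.49 in Aska-SS and 8.10 in Yamato-SS.

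In the Wnt pathway, 7 of 34 genes (20.6%) were separated, against 13.5% of all genes. In 6 of them the SS18-SSX2 lines were higher, and the median difference of the 34 was -0.71. Among regulators of the ligands, SFRP2 had means of 11.12 in SYO-1 and 11.67 in Fuji against 5.92 and 7.83 in Aska-SS and Yamato-SS. WIF1, a secreted inhibitor of Wnt ligands, was at 14.99 in SYO-1, 15.01 in Fuji and 14.38 in Aska-SS, and at 8.96 in Yamato-SS, which stood far below the other 3 lines. RSPO3, a secreted enhancer of Wnt signaling, was the exception in direction, at 11.47 in Aska-SS and 7.05 in Yamato-SS against 4.57 and 5.47. Among receptors, LGR4, which binds R-spondins, had 10.04 and 9.91 against 8.38 and 9.03, and FZD3 and FZD5 were also higher in the SS18-SSX2 lines. CTNNB1 (beta-catenin), the transducer, ran from 13.23 to 13.47 in the SS18-SSX2 arrays and from 12.74 to 12.98 in the SS18-SSX1 arrays, a difference of -0.42.

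In the Hedgehog and Notch pathways, HEY2, GLI2 and JAG2 of 22 genes were separated (13.6%, near the 13.5% of all genes), all with the SS18-SSX2 lines higher. HEY2, a Notch target, had means of 13.26 in SYO-1 and 11.70 in Fuji against 7.52 in Aska-SS and 9.12 in Yamato-SS. In the TGF beta and BMP pathways, 4 of 31 genes were separated, ID4 with the SS18-SSX1 lines higher and INHBA, SMAD5 and BMP7 with the SS18-SSX2 lines higher. INHBA, which encodes the activin A subunit, had means of 13.13 and 13.89 against 10.51 and 12.29.

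Of 32 receptor tyrosine kinases, 5 (15.6%) were separated, near the 13.5% of all genes. MET, AXL and EGFR were higher in the SS18-SSX1 lines and ERBB2 and INSR in the SS18-SSX2 lines. MET was at 14.31 in Yamato-SS and at 10.55 in Aska-SS, against 9.57 in SYO-1 and 9.03 in Fuji. AXL had means of 11.45, 11.74 and 10.30 in Aska-SS, Yamato-SS and Fuji and of 5.99 in SYO-1. EGFR had a difference of 1.09 ± 0.41 (SE) and lost its separation under another setting. Of 30 ligands and binding proteins of growth factors, 5 (16.7%) were separated, against 13.5% of all genes. PDGFD and PGF were higher in the SS18-SSX1 lines and IGFBP4, IGFBP3 and GAS6, the ligand of AXL, in the SS18-SSX2 lines. IGFBP4, a binding protein of insulin-like growth factors, had means of 11.54 in SYO-1 and 10.75 in Fuji against 8.33 and 7.90, and IGFBP3 had 12.54 and 10.97 against 8.84 and 4.33.

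In the chromatin complexes that the fusion protein meets, no gene had a separation above the 0.56 of CBX6. Of 28 BAF subunit genes, 4 (14.3%) were separated, near the 13.5% of all genes. SMARCC1, a core subunit, had means of 12.29 and 12.20 in the SS18-SSX1 lines against 11.81 and 11.83, and PBRM1 was separated in the same direction by 0.04. DPF3 and BICRA were higher in the SS18-SSX2 lines, with separations of 0.06 and 0.05. Of 26 Polycomb genes, 5 (19.2%) were separated, against 13.5% of all genes. CBX2 was higher in the SS18-SSX1 lines and CBX6, SUZ12, KDM2B and PCGF1 in the SS18-SSX2 lines. SUZ12, a core subunit of PRC2, had 12.41 and 12.14 against 11.88 and 11.85, and CBX6 11.43 and 11.52 against 10.45 and 10.76. PBRM1, DPF3 and CBX2 were not separated under at least 1 other setting of the processing.

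Genes of the PI3K pathway and of apoptosis were of interest because of the inhibitor used. Of 38 PI3K pathway genes, 3 (7.89%) were separated, fewer than the 13.5% of all genes. They were PIK3CD, PHLPP1 and PIK3C2A, with the SS18-SSX2 lines higher. The other probe sets of PIK3C2A and of PIK3CD above the filter were not separated, though their differences had the same sign. With its probe sets averaged, PIK3C2A was not separated. PIK3CD, the p110 delta catalytic subunit, ran from 7.61 to 9.39 in the SS18-SSX2 arrays and from 5.43 to 6.93 in the SS18-SSX1 arrays. PHLPP1, an Akt phosphatase, had means of 9.28 and 9.23 against 7.86 and 6.91. Of 15 BCL-2 family genes, BCL2 and BCL2L11 were separated (13.3%, near the 13.5% of all genes), both with the SS18-SSX2 lines higher. BCL2, which inhibits apoptosis, had means of 11.53 in SYO-1, 12.36 in Fuji, 10.82 in Yamato-SS and 8.77 in Aska-SS. BCL2L11, which encodes the proapoptotic protein BIM, had means of 10.16 and 10.26 against 9.48 in Aska-SS and 8.89 in Yamato-SS. These values are from its brightest probe set, and for BCL2L11 too the answer depended on the probe set. Fewer of its other probe sets were separated than were not, though all had differences of the same sign, from -0.42 to -0.98. With its probe sets averaged, BCL2L11 stayed separated, with a difference of -0.74.

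In several lists few or no genes were separated, where 13.5% of all genes were, and the shorter lists say little at that share. The counts were 0 of 31 proliferation genes, 1 of 26 cell cycle inhibitors and G1 genes (E2F3, with the SS18-SSX2 lines higher), 0 of 20 genes of MHC and antigen presentation and 0 of 10 genes of muscle, cartilage and bone. Of 24 interferon response genes, 4 (16.7%) were separated. IFITM1 was higher in the SS18-SSX1 lines and ISG15, HERC5 and IRF7 in the SS18-SSX2 lines. ISG15, a ubiquitin-like protein induced by interferon, had means of 11.26 and 10.56 against 8.61 and 8.93. Of 19 genes of drug metabolism and detoxification, 3 (15.8%) were separated. CYP1B1 and GCLC were higher in the SS18-SSX1 lines. ALDH1A3, a retinaldehyde dehydrogenase, was higher in the SS18-SSX2 lines, at 12.48 and 11.60 against 9.86 and 8.09. Of the 8 SS markers, BCL2 and PRAME, a cancer testis antigen, were separated with the SS18-SSX2 lines higher, and PRAME was the only one separated of 3 cancer testis antigens above the filter outside the SSX family.

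**Figure D4:**
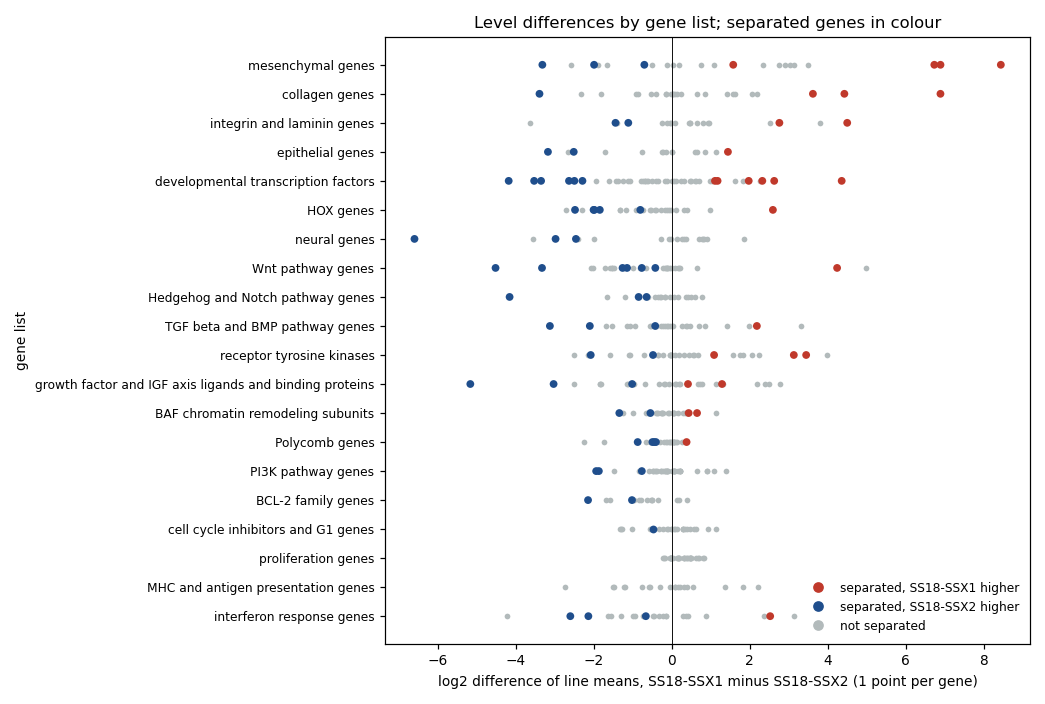
Difference of line means on the log2 scale (x axis, SS18-SSX1 minus SS18-SSX2) for the genes of 20 gene lists (y axis), 1 point per gene, with separated genes in red (SS18-SSX1 higher) or blue (SS18-SSX2 higher). The separated Wnt, HOX and neural genes lie mostly on the blue side, and no proliferation or antigen presentation gene is coloured.

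By their place in the human reference GRCh38.p14, 5.76% of all placed genes were higher in the SS18-SSX1 lines and 7.73% in the SS18-SSX2 lines, and the shares differed between chromosomes. On chromosome 22, 49 of 297 genes (16.5%) were higher in the SS18-SSX2 lines and 1 was higher in the SS18-SSX1 lines, and the median difference of all 297 was -0.43. Aska-SS stood apart there, with a median deviation of -0.57 from the mean of the 4 lines, against 0.14 in Yamato-SS, 0.26 in SYO-1 and 0.19 in Fuji. Without Aska-SS the share was 22.9% on chromosome 22 and 25.3% over all genes, since fewer lines have to be separated, and without Yamato-SS it was 69% and 21.6%.

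On chromosome 20, 54 of 344 genes (15.7%) were higher in the SS18-SSX1 lines and 12 (3.49%) in the SS18-SSX2 lines, against 5.76% and 7.73% of all placed genes, and here Yamato-SS had the largest deviation (0.22). On chromosome 13 the median difference was 0.27, with SYO-1 at -0.41 and the other lines at 0.12 to 0.18. On chromosomes 1, 2, 10 and 11, from 10.7% to 13.9% of genes were higher in the SS18-SSX2 lines, against 7.73% of all. Copy number was not analysed here, and its part in these levels was not tested.

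**Figure D5:**
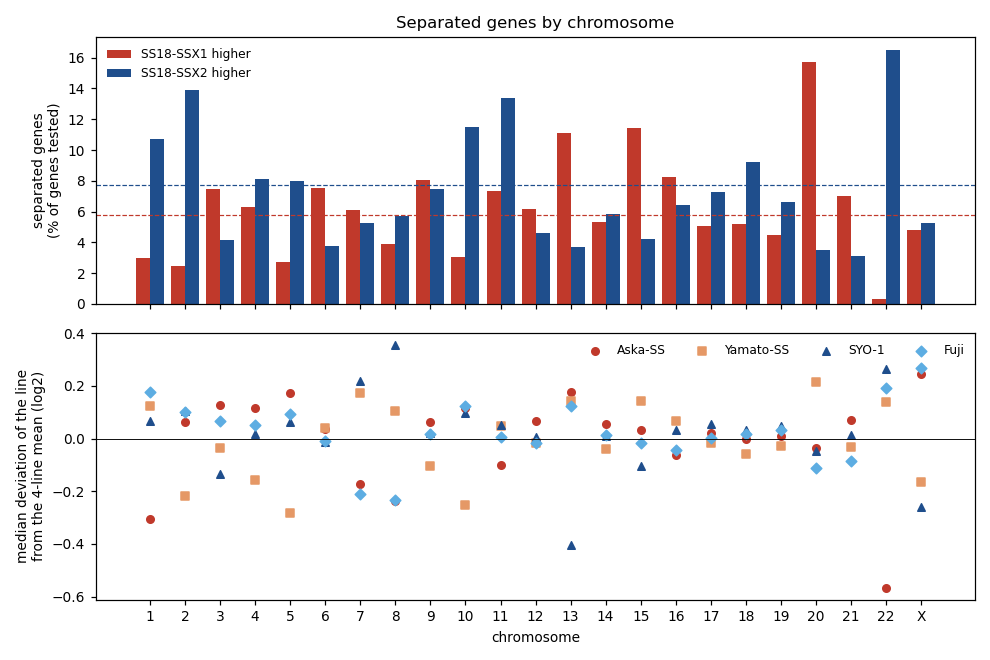
Top, share of the genes on each chromosome (x axis) that were separated, in % of genes tested, by direction, with the share over all chromosomes as dashed lines. Bottom, median deviation of each line from the mean of the 4 lines over the genes of a chromosome, on the log2 scale, with Aska-SS at -0.57 on chromosome 22 and SYO-1 at -0.41 on chromosome 13.

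Some separated genes lay next to each other in the reference. Among 12078 pairs of neighbouring tested genes, both were higher in the SS18-SSX1 lines in 89, both in the SS18-SSX2 lines in 158, and the pair was divided in 54. There were 37 runs of 3 or more. Over all placed genes, 5.76% were higher in the SS18-SSX1 lines and 7.73% in the SS18-SSX2 lines. The pair and run counts to be had from these shares alone were not computed, so the counts are descriptions only. The genes of the following runs were chosen after their values were seen. MDFIC, TES, CAV2, CAV1 and MET on chromosome 7 were all higher in the SS18-SSX1 lines, with CAV1 (caveolin-1) at 10.41 to 11.66 against 4.67 to 7.43. The chemokine genes CXCL6, CXCL1, PF4 and CXCL5 on chromosome 4, with MTHFD2L beside them, were higher in the SS18-SSX1 lines, and CXCL1 ran from 6.90 to 12.56 against 3.70 to 5.99. The longest run, of 6 genes, was IRF7, DEAF1, TMEM80, TALDO1, GATD1 and CEND1 on chromosome 11, all higher in the SS18-SSX2 lines, with differences of -0.67 for IRF7 and -1.32 for DEAF1. The metallothionein genes MT1F, MT1G, MT1H and MT1X on chromosome 16 were higher in the SS18-SSX2 lines, by differences of -1.86 for MT1F and -1.14 for MT1G, and these near-identical genes can share probes.

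A gene's other probe sets are a second reading of the same RNA on the same arrays. The genes higher in the SS18-SSX1 lines had 682 other probe sets above the filter, of which 309 (45.3%) were separated in the same direction, 3 in the opposite direction, and 612 (89.7%) had a difference of the same sign. For the genes higher in the SS18-SSX2 lines the numbers were 382 of 1009 (37.9%), 5 and 866 (85.8%). For genes that were not separated, 72.4% of 9385 other probe sets had the sign of the brightest.

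The rule used the levels at all 3 doses, but not the change that the 4 lines had in common. Between 0 and 3 µM, with the line as a block, 2743 genes rose (22.6%) and 2561 fell (21.1%) at an adjusted p under 0.05 (limma). The 3′ to 5′ ratio of beta actin also rose between these doses in each of the 4 lines, and its part in the changes was not tested. Of the 704 genes higher in the SS18-SSX1 lines, 141 rose (20%) and 151 fell (21.4%), close to the shares over all genes. Of the 935 genes higher in the SS18-SSX2 lines, 259 rose (27.7%) and 147 fell (15.7%). With each line left out in turn, 21.3% to 27.3% of these 935 rose and 11.9% to 15.7% fell, against 18.4% to 20.8% and 16.6% to 19.5% of all genes. The separated genes include 126 and 69 whose lower fusion had a mean below the filter (17.9% and 7.38%, against 5.56% of all genes). A fall from levels near the floor is limited, and the shares were not computed without these genes. The comparison with all genes is therefore not of like sets.

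Among genes higher in the SS18-SSX1 lines, IFITM1, an antiviral membrane protein, rose by 2.33 ± 0.38 (SE, adjusted p = 0.00051 by limma), from signals of 485.9, 392.1, 248.6 and 83.8 at 0 µM to 2085.3, 8036.3, 440.1 and 345.8 at 3 µM in Aska-SS, Yamato-SS, SYO-1 and Fuji. AXL rose by 1.21 ± 0.21, EGFR by 0.88 ± 0.13 and ID4, an inhibitor of differentiation factors, by 0.77 ± 0.09. GLUL rose by 0.68 ± 0.14 and the Polycomb gene CBX2 by 0.43 ± 0.09. Each of these 6 genes also passed the test with any single line left out.

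Among genes higher in the SS18-SSX2 lines, BCL2L11 rose by 1.13 ± 0.15 (SE, adjusted p = 0.00012 by limma), from signals of 565, 263, 858 and 790 to 881, 868, 1572 and 1931 in the same order of lines. PIK3CD rose by 1.05 ± 0.25, GATA6 by 0.73 ± 0.16, PCDHB2 by 0.62 ± 0.15, TGFBI by 0.49 ± 0.12 and PRAME by 0.47 ± 0.10. CCL2 fell by 2.17 ± 0.35 and E2F3, a cell cycle transcription factor, by 0.59 ± 0.09. These 8 genes too passed with any single line left out. ZIC1 rose by 0.64 ± 0.18 with an adjusted p of 0.011 that became 0.071 without Fuji. IGFBP4 fell by 0.52 ± 0.17 with an adjusted p of 0.026, which lay between 0.08 and 0.149 without Aska-SS, SYO-1 or Fuji.

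Whether the change at 3 µM differed between the fusion genes was tested with an interaction term. It passed in 0 of 12132 genes (limma), and 785 (6.47%) had an unadjusted p under 0.05. The rule left out genes whose gap between the fusion genes closed at a dose, so no share among the separated genes is given. BCL2 changed by 1.05 less in the SS18-SSX1 than in the SS18-SSX2 lines (an interaction of -1.05 ± 0.24, adjusted p = 0.72 by limma), with signals that went from 455 to 407 in Aska-SS, 2103 to 1312 in Yamato-SS, 2553 to 3480 in SYO-1 and 3818 to 6660 in Fuji. For SVEP1 the interaction was -1.45 ± 0.31 and for ADAMTSL1 -1.77 ± 0.50, with adjusted p of 0.72 and 0.75. BCL2, SVEP1 and ADAMTSL1 were picked after their values were seen, and terms of the other sign were found too. The interaction was 1.79 ± 0.62 for IFITM1 and 1.59 ± 0.47 for COL1A2 (adjusted p = 0.76 for both by limma). In each of these genes the gap between the fusion genes was wider at 3 µM than at 0 µM, a pattern that the rule favours. A p that misses the threshold does not show that the lines responded alike.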

How the data were processed

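The authors deposited linear MAS5 signal intensities (version not given in the sources used here), scaled to a 2% trimmed mean of 500.1 per array. Following the methods, quantile normalization was applied here. The 20th percentile of all values served as a floor before log2, and the 62 controls were dropped once the arrays were normalized. Of the 54675 probe sets, the filter kept those whose mean on the log2 scale exceeded 6.03, the median over the probe sets left without the controls. The brightest probe set with 1 symbol stood for each gene. The annotation names 41091 probe sets with 1 symbol, 1801 with several and 11777 not at all. No array was left out. Symbols were looked up in GRCh38.p14 and 0 were updated.

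Levels were tested in R 4.3.3 with limma 3.58.1 on 4 line means (mean of 3 doses), with a variance trend and Benjamini-Hochberg adjustment over all 12132 genes. Dose (3 against 0 µM) and its interaction with the fusion gene were tested over 12 arrays with the line as a block. The functions were tested on simulated data. Repeated cultures of a line were not measured, so p-values rest on the spread between lines.

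Named genes are the SS18 and SSX family, the 15 largest separations in each direction, up to 4 separated genes with the largest separation per list of 29, and the 3 genes on either side of the limit. Other separated genes of a list are named too. The values of ZEB1, CTNNB1 and the runs of neighbours were picked after they were seen, as were the genes named for the interaction. Genes of the Y chromosome, XIST and TSIX were counted, not named and not looked up for promoters, while IGF2 and PIK3CA were not used here. The members and lists were chosen with earlier results of these data known. Alternatives changed the normalization, the floor, the filter, the choice of probe set, the doses, the variance model and the lines used.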

Additional observations from a re-analysis of the deposited data

How the results depend on the processing

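With another normalization, floor or filter, or with probe sets averaged per gene, 560 to 808 genes were separated with the SS18-SSX1 lines higher and 798 to 1011 with the SS18-SSX2 lines higher. With separation required at 0 µM only the counts were 1678 and 2024, and with a separation of at least 1 they were 110 and 74. Leaving out each line in turn gave 1755 to 2466 and 2222 to 3072, since 3 lines are more easily separated than 4. No gene passed the level test in any setting but 1, the 12 arrays with the line as a random block, where 61 passed. The interaction was called in 0 to 1 genes when a line was left out, with 1 without Aska-SS, and in 0 genes in the other settings. The counts of genes that rose or fell at 3 µM stayed within 1.5 times, also without each line (2231 to 2524 and 2014 to 2367), a setting chosen after seeing the data. Of the level differences of named genes, 1483 values kept direction and side of the threshold, 29 passed it only in another setting, and those of 3 genes that were not separated changed sign. With each line left out in turn, the difference of SS18 ran from -0.040 to 0.37, negative without Aska-SS and without Fuji (-0.035), that of SS18L1 from -0.23 (without Yamato-SS) to 0.47, and that of SSX2IP from -1.30 to 1.01, positive without Aska-SS and without Fuji (0.52). SSX2IP was also positive, at 0.034, with the arrays at 3 µM only. The cause was not tested. BMP7, CBX2, DPF3, EGFR, EPC2, GCLC, PBRM1 and PIK3C2A were not separated in at least 1 other setting. No paired analysis was possible because the replicate numbers only name the doses of a line, and lines of different fusion genes share no pairing. Depth is not defined for arrays, and levels near the floor limit the smaller values.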
